A study of Mus musculus with 6 samples.

Results

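The genes described here are 37 mouse genes that copy DNA or open the way from G1 into S phase of the cell cycle. They were chosen by name for their role, with earlier results of these data known. A gene counted as found where it was the only symbol of a probe set, the group of array probes read as 1 gene, and where several probe sets qualified, the brightest on average was used. All 37 were found, among 19938 named genes on the array. They were measured in sorted mouse bone marrow on 6 Affymetrix arrays, 2 labelled as biological replicates in each of 3 groups, all of the strain C57BL/6 (B6), labelled wild type and aged 8 weeks. Marrow of donors treated with fluorouracil, which kills cycling cells, was infected with retrovirus and given to B6 recipients, and 14 days later GFP+ Lin- c-Kit+ Sca-1+ cells were sorted. The vector group received a virus with GFP alone, and its cells are labelled HSCs, hematopoietic stem cells. The BCR-ABL group received BCR-ABL with GFP, and the BCR-ABL-Blk group BCR-ABL, Blk and GFP; both are labelled LSCs, leukemic stem cells. BCR-ABL is the fused, always active kinase that drives chronic myeloid leukemia. Blk belongs to the Src family of kinases. The transplant, the virus backbone's GFP and the sort are shared by all groups, BCR-ABL and Blk come from a virus rather than from their own promoters, and the number of mice behind each array is not in the labels.

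DNA replication begins in G1, when origins are licensed: Cdc6 and Cdt1 load the ring-shaped helicase Mcm2 to Mcm7 onto DNA. At the start of S phase cyclin E with its kinase, and the E2F factors that drive transcription of these genes, allow the helicase to be switched on by Cdc45, the GINS complex and Mcm10. Primase and polymerases then copy the strands, held by the sliding clamp Pcna. Stem cells of undisturbed adult marrow mostly rest outside the cycle, and a chronic phase leukemia expands progenitors that divide. The comparison of sorted cells with and without BCR-ABL bears on the level of this machinery. All groups, vector included, come from fluorouracil-treated donors and were sorted 14 days after transplant. The vector cells can therefore not be taken as resting cells, and their place in the cycle was not measured here. In bulk samples, fewer cells in S phase and less of an RNA in each cell cannot be told apart.

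The vector arrays stood further apart than the others, and cell type markers varied with them. The deposited medians of the arrays ran from 7.01 to 7.52 on the log2 scale, so the arrays were brought to a common distribution before any comparison, and all levels below are log2 values after that step. The correlation over all genes was 0.987 between the vector arrays, 0.994 between the BCR-ABL arrays and 0.992 between the BCR-ABL-Blk arrays. Of the genes of the sorted gate, Kit lay between 10.33 and 10.92, while Ly6a, the gene of Sca-1, was not analysed here. Cd34, which was not part of the stated gate, lay between 11.54 and 11.97. Of 9 lineage markers that the sort should remove, 7 were measured, among them Cd3e (7.35 to 7.64), Ms4a1 (5.24 to 5.63) and Ly6g, which read 8.50 on vector replicate 2 and 6.23 on vector replicate 1. Detection calls were not used, so none of these can be said to be at background.

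No replication gene passed the test in any comparison. Between BCR-ABL and vector cells 0 of 37 were called at an adjusted p under 0.05 (limma, Benjamini-Hochberg over all genes), where 0.145% of all genes were called. Between BCR-ABL-Blk and BCR-ABL cells 0 of 37 were called, and 0% of all genes. Between BCR-ABL-Blk and vector cells 0 of 37 were called, where 0.14% of all genes were. At an unadjusted p under 0.05 the counts were 0, 1 and 1 of 37, against 8.64%, 3.96% and 9.42% of all genes; the single gene was Rrm2 in both comparisons with BCR-ABL-Blk cells.

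The differences were also small. BCR-ABL minus vector differences ran from −0.25 (Tk1) to 0.43 (Chaf1b), with a median of 0.01 over the 37 genes and 0.02 over all genes, and 19 lay above 0 and 16 below, where 54.3% of all genes lay above. BCR-ABL-Blk minus BCR-ABL differences ran from −0.29 (Rfc4) to 0.26 (Gins2), with a median of 0.002 against −0.01 over all genes, and 19 lay above 0 (45.6% of all genes). BCR-ABL-Blk minus vector differences ran from −0.32 (Ccne1) to 0.34 (Chaf1b), with a median of 0.05 against 0.004 over all genes, and 23 lay above 0 (51.2% of all genes). Without regard to sign, the median difference in the 3 comparisons was 0.089, 0.062 and 0.133 over the 37 genes. Over all genes it was 0.103, 0.086 and 0.102. No member differed by as much as 1.5-fold in any comparison, a step that 3.54%, 0.978% and 4.02% of all genes exceeded in the 3 comparisons. The sign was the same under all 4 scalings tried for 21, 8 and 29 of the 37 genes. The comparisons share arrays, so their differences are not independent of each other.

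How much change these arrays could have missed is given by the intervals. The 95% interval of the difference lay wholly inside 2-fold for 37 of 37 genes between BCR-ABL and vector cells, where it did so for 94.6% of all genes. It did so for 37 of 37 between BCR-ABL-Blk and BCR-ABL cells (97.1% of all genes) and for 36 of 37 between BCR-ABL-Blk and vector cells (94.5%), Ccne1 being the one that did not. These shares are close to those of all genes and so are no property of the replication genes. In the common scaling, a change of 2-fold or more lay outside the interval for 36 of the 37 in all 3 comparisons, and for 92.8% of all genes. The fit takes a spread shared by all groups, while the vector arrays stood further apart. The intervals against vector may therefore be too narrow. With arrays centred on their medians, 35 of 37 lay inside 2-fold for BCR-ABL minus vector. Standard errors had a median of 0.134 over the 37 genes and 0.129 over all genes.

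**Figure D1:**
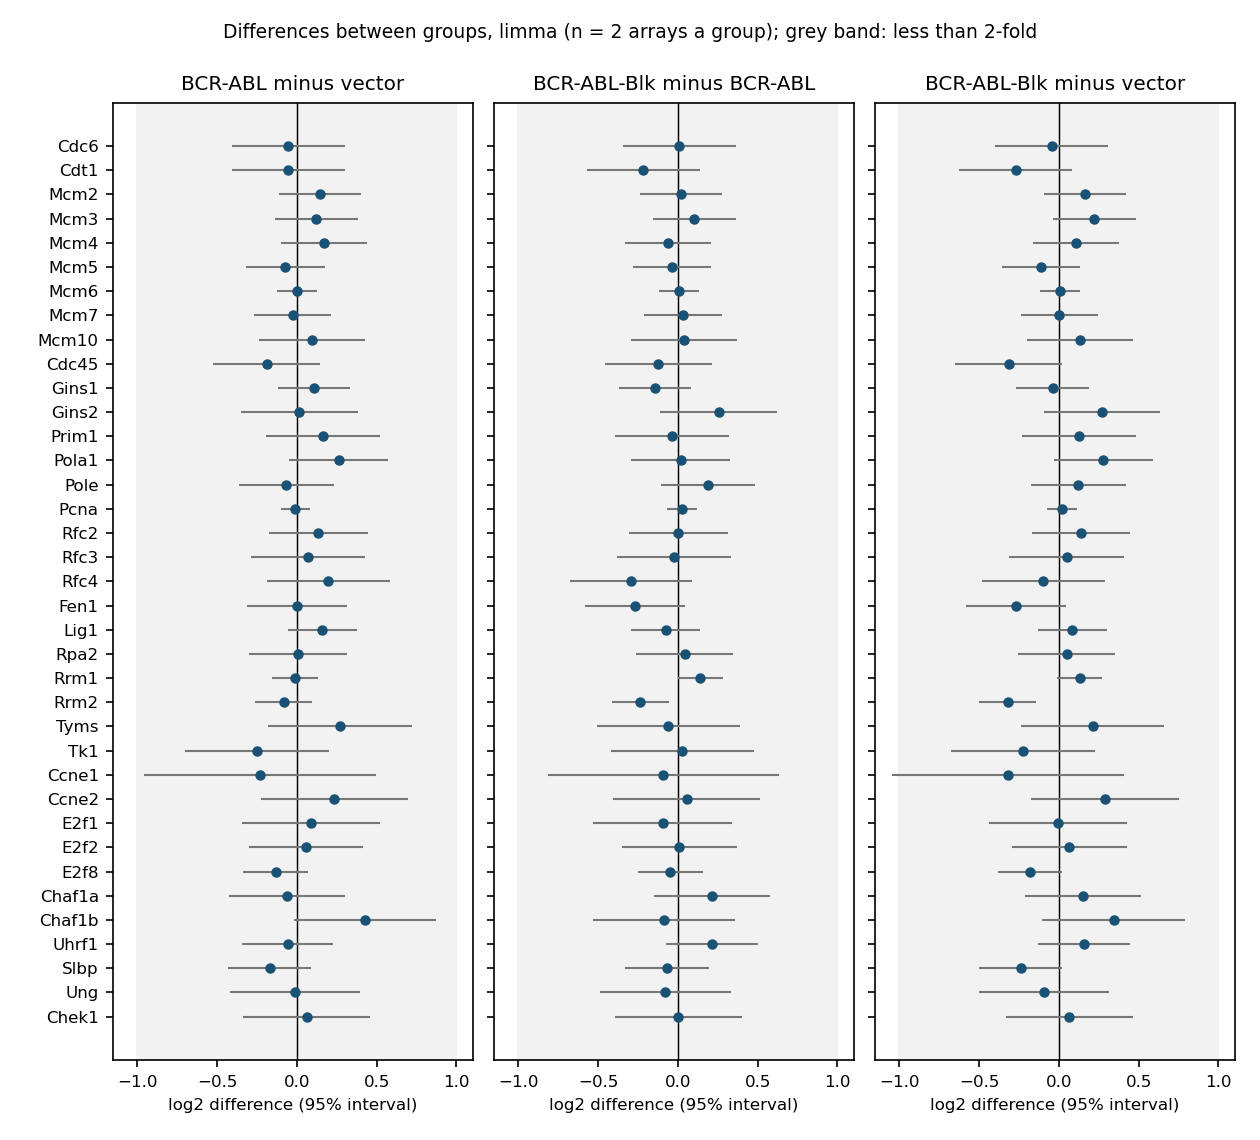
Differences in log2 level (x axis) of the 37 genes (y axis) in the 3 comparisons, as points with 95% intervals from limma with 2 arrays a group; the grey band spans changes of less than 2-fold. All points lie between −0.32 and 0.43, and the interval of Ccne1 in the right panel leaves the band.

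A mark that many of these genes share lies in their promoters. E2F proteins bind short motifs with a run of T followed by C and G, and 4 such motifs were searched on both strands, TTTCGCGC, TTTGGCGC, TTTCCCGC and TTTGGCGG, in RefSeq windows of 300 bases, 250 before and 50 after a gene's start (GRCm38.p6). Of the 31 replication genes with a window, 13 held at least 1 match: Cdc6, Cdt1, Mcm3, Mcm5, Mcm6, Mcm7, Pola1, Rfc3, Lig1, E2f2, Chaf1a, Uhrf1 and Chek1. Their share was 41.9%, against 2.7% of the 27025 genes in the table and 2.37% of its windows. The CCAAT box, CCAAT on either strand, was in 61.3% of the replication genes and in 41.1% of all genes. Mcm4, Gins1, Gins2, Pole, Rfc2 and Ccne2 have no entry in the table. The genes were listed for their role in S phase, where E2F targets are common, so this describes the list. The stretches below carry the motif upstream of the start of genes whose levels are given next, and lie outside the gene's whole extent in RefSeq. Cdc6, Mcm7, Pola1 and Uhrf1 also hold a match upstream of a start, but their stretches did not meet that rule and are not shown. Capitals mark the matches, and in Mcm5 and in the first match of Mcm6 a pair of motifs on opposite strands overlap.
Mcm5 (chr8:75109336-75109387, plus strand): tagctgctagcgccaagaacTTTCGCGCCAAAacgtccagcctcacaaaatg
Mcm6 (chr1:128359725-128359835, minus strand): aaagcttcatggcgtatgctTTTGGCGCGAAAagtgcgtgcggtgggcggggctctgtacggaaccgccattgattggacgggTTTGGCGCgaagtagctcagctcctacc
Rfc3 (chr5:151651209-151651238, minus strand): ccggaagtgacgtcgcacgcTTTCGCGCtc
Chaf1a (chr17:56040352-56040399, plus strand): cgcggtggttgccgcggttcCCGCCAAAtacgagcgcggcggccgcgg

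No origin licensing gene passed the test, and several helicase subunits were nearly level across the arrays. Mcm6, a helicase subunit whose promoter stretch above carries 3 matches, had the smallest range of all 37 genes: 11.85 to 11.88 over 6 arrays. Its BCR-ABL minus vector difference was 0.00 (95% interval −0.13 to 0.13). That flatness depended on the scaling: the deposited Mcm6 values ran from 11.78 to 11.99. With arrays centred on their medians the same difference was 0.145, outside that interval. Mcm7 lay between 10.38 and 10.49 and Mcm5, with 2 overlapping matches, between 10.41 and 10.61. Mcm2 read 10.65 and 10.46 in vector, 10.67 and 10.73 in BCR-ABL, and 10.64 and 10.79 in BCR-ABL-Blk cells (replicates 1 and 2). Only vector replicate 2 stood low, and the BCR-ABL minus vector difference was 0.14 (SE 0.11, adjusted p = 0.783). Mcm3 had the same shape, with 10.64 and 10.49, then 10.61 and 10.76, then 10.72 and 10.85. For Mcm3 the vector arrays were both below the BCR-ABL-Blk arrays, by 0.22 (SE 0.11, adjusted p = 0.614). Mcm4 read 10.68 and 10.47, 10.72 and 10.77, and 10.60 and 10.77; its BCR-ABL arrays lay above its vector arrays by 0.17 (SE 0.12, adjusted p = 0.755). The loading factors differed in detail: Cdc6 lay between 9.06 and 9.31 with overlapping groups. Cdt1, which is destroyed once S phase starts and whose RNA is measured here, read 8.21 and 8.37 in vector, 8.15 and 8.32 in BCR-ABL and 8.14 and 7.89 in BCR-ABL-Blk cells. Its BCR-ABL-Blk arrays were the lowest, though replicate 1 nearly touched the lower BCR-ABL array, and the difference from BCR-ABL was −0.22 (95% interval −0.57 to 0.14). Its sign depended on the scaling, with 0.06 without normalization between arrays.

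Of the genes that switch on the helicase, none passed the test. Cdc45, part of the moving helicase, read 10.00 and 10.09 in vector, 9.95 and 9.77 in BCR-ABL and 9.87 and 9.60 in BCR-ABL-Blk cells. Both vector arrays were above the other 4, and the BCR-ABL-Blk minus vector difference was −0.31 (SE 0.14, 95% interval −0.65 to 0.02, adjusted p = 0.561), and −0.135 without normalization between arrays. Gins2, a subunit of the GINS complex, read 10.92 and 10.69, 10.69 and 10.95, and 10.89 and 11.27. Its highest value came from BCR-ABL-Blk replicate 2 alone, and the difference from BCR-ABL was 0.26 (SE 0.16, adjusted p = 0.999). Without normalization between arrays, where the median of all genes stood at 0.15 for BCR-ABL-Blk minus vector, Gins2 stood at 0.435 and passed (adjusted p = 0.0498). Its partner Gins1 read 10.92 and 10.93, 11.12 and 10.94, and 10.93 and 10.84, highest on BCR-ABL replicate 1. The BCR-ABL-Blk minus BCR-ABL difference of Gins1 was −0.15 (SE 0.10, adjusted p = 0.999), opposite in sign to that of Gins2, and 0.025 without normalization between arrays. Mcm10, which helps to open the origin, lay between 9.32 and 9.60, lowest on vector replicate 2.

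Among the enzymes that start and extend strands, Pola1, the catalytic subunit of the polymerase that makes the first stretch after the primer, read 10.67 and 10.35 in vector, 10.80 and 10.74 in BCR-ABL, and 10.88 and 10.70 in BCR-ABL-Blk cells. Both vector arrays were below the other 4 arrays. The difference from vector was 0.26 for BCR-ABL (SE 0.13, adjusted p = 0.646) and 0.28 for BCR-ABL-Blk cells (SE 0.13, adjusted p = 0.589). Without vector replicate 2 these were 0.0992 and 0.117, and without vector replicate 1 they were 0.424 and 0.442. Pole, the leading strand polymerase, read 9.88 and 10.07, 9.97 and 9.85, and 10.06 and 10.14, with BCR-ABL-Blk above BCR-ABL by 0.19 (SE 0.13, adjusted p = 0.999). Prim1, the primase subunit that lays the RNA primer, lay between 10.78 and 11.26 and was lowest on vector replicate 2.

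Pcna, the sliding clamp and a usual marker of dividing cells, had narrow intervals around 0 in the common scaling. It read 12.69 and 12.69 in vector, 12.64 and 12.72 in BCR-ABL, and 12.71 and 12.71 in BCR-ABL-Blk cells. BCR-ABL minus vector was −0.01 (95% interval −0.10 to 0.08), and BCR-ABL-Blk minus vector was 0.02 (95% interval −0.08 to 0.11). A second probe set of Pcna gave −0.02 and 0.02. These small differences depended on the scaling: they were 0.12 and −0.045 when arrays were centred on their medians, the first outside its interval above. BCR-ABL-Blk minus BCR-ABL was 0.03 for Pcna (95% interval −0.07 to 0.12). It was −0.165 with arrays centred on their medians and 0.135 without normalization between arrays, both outside that interval. Of the clamp loader subunits, Rfc4 read 10.41 and 9.97 in vector, 10.41 and 10.36 in BCR-ABL and 10.20 and 9.99 in BCR-ABL-Blk cells. Both BCR-ABL-Blk arrays lay below both BCR-ABL arrays, by 0.29 on average (difference −0.29, SE 0.16, adjusted p = 0.999), but the vector arrays spanned the whole of that range. Without normalization between arrays this Rfc4 difference was −0.085. Rfc2 lay between 9.87 and 10.19 and Rfc3 between 10.30 and 10.68, with overlapping groups.

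For joining the pieces of the lagging strand, Fen1, the nuclease that trims the RNA primers, read 9.82 and 9.61 in vector, 9.72 and 9.72 in BCR-ABL, and 9.40 and 9.50 in BCR-ABL-Blk cells. The BCR-ABL-Blk arrays were the lowest of the 6, with a difference of −0.27 from each other group (SE 0.13; adjusted p = 0.999 against BCR-ABL and 0.611 against vector). Without normalization between arrays Fen1 stood at −0.03 against BCR-ABL and −0.09 against vector. Lig1, the ligase that seals the pieces, read 10.72 and 10.65, 10.80 and 10.90, and 10.78 and 10.76. Its vector arrays were the lowest, and BCR-ABL lay 0.16 above them (SE 0.09, adjusted p = 0.695). Rpa2, a subunit of the protein that coats single strands, lay between 9.65 and 9.84 with no separation of groups.

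The subunits of ribonucleotide reductase, the enzyme that makes deoxynucleotides, read to opposite sides in BCR-ABL-Blk cells, with no difference past the test. Rrm2, the small subunit and the one made mainly in S phase, read 11.60 and 11.54 in vector, 11.54 and 11.43 in BCR-ABL, and 11.29 and 11.21 in BCR-ABL-Blk cells. Without normalization between arrays, its BCR-ABL-Blk and BCR-ABL arrays overlapped. In the common scaling both BCR-ABL-Blk arrays lay below the other 4, while the nearest vector and BCR-ABL arrays almost touched. The difference of BCR-ABL-Blk from BCR-ABL was −0.24 (SE 0.08, 95% interval −0.41 to −0.06, adjusted p = 0.999), a level 0.849 times as high. Against vector it was −0.32 (SE 0.08, 95% interval −0.50 to −0.14, adjusted p = 0.204), a level 0.801 times as high and the smallest adjusted p of any of the 37 genes. These differences stayed below 0 in all 15 alternative settings, from −0.37 to −0.07 against BCR-ABL and from −0.36 to −0.16 against vector, and none passed the test. Rrm1, the large subunit, read 11.68 and 11.69, 11.70 and 11.64, and 11.79 and 11.83. Its BCR-ABL-Blk arrays were the highest of the 6, by 0.14 over BCR-ABL (SE 0.06, adjusted p = 0.999) and by 0.13 over vector (SE 0.06, adjusted p = 0.579); against BCR-ABL the value was −0.025 when arrays were centred on their medians instead. That Rrm1 and Rrm2 differ from each other was not tested.

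Tyms and Tk1 supply thymidine nucleotides, and their spread lay in the vector group. Tyms, thymidylate synthase, read 10.66 and 10.02 in vector, 10.66 and 10.56 in BCR-ABL and 10.56 and 10.55 in BCR-ABL-Blk cells. Vector replicate 2 alone was low, so the BCR-ABL minus vector difference of 0.27 (SE 0.19, adjusted p = 0.763) rested on that array. It was 0.59 without vector replicate 1, where Tyms passed (adjusted p = 0.0459), and −0.05 without vector replicate 2. Tk1, thymidine kinase, was highest on the same array, with 10.20 and 10.75 in vector and 10.11 to 10.40 on the other 4. A second Tk1 probe set gave 8.84 and 9.14 in vector and 8.59 to 8.80 elsewhere, also highest on vector replicate 2.

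**Figure D2:**
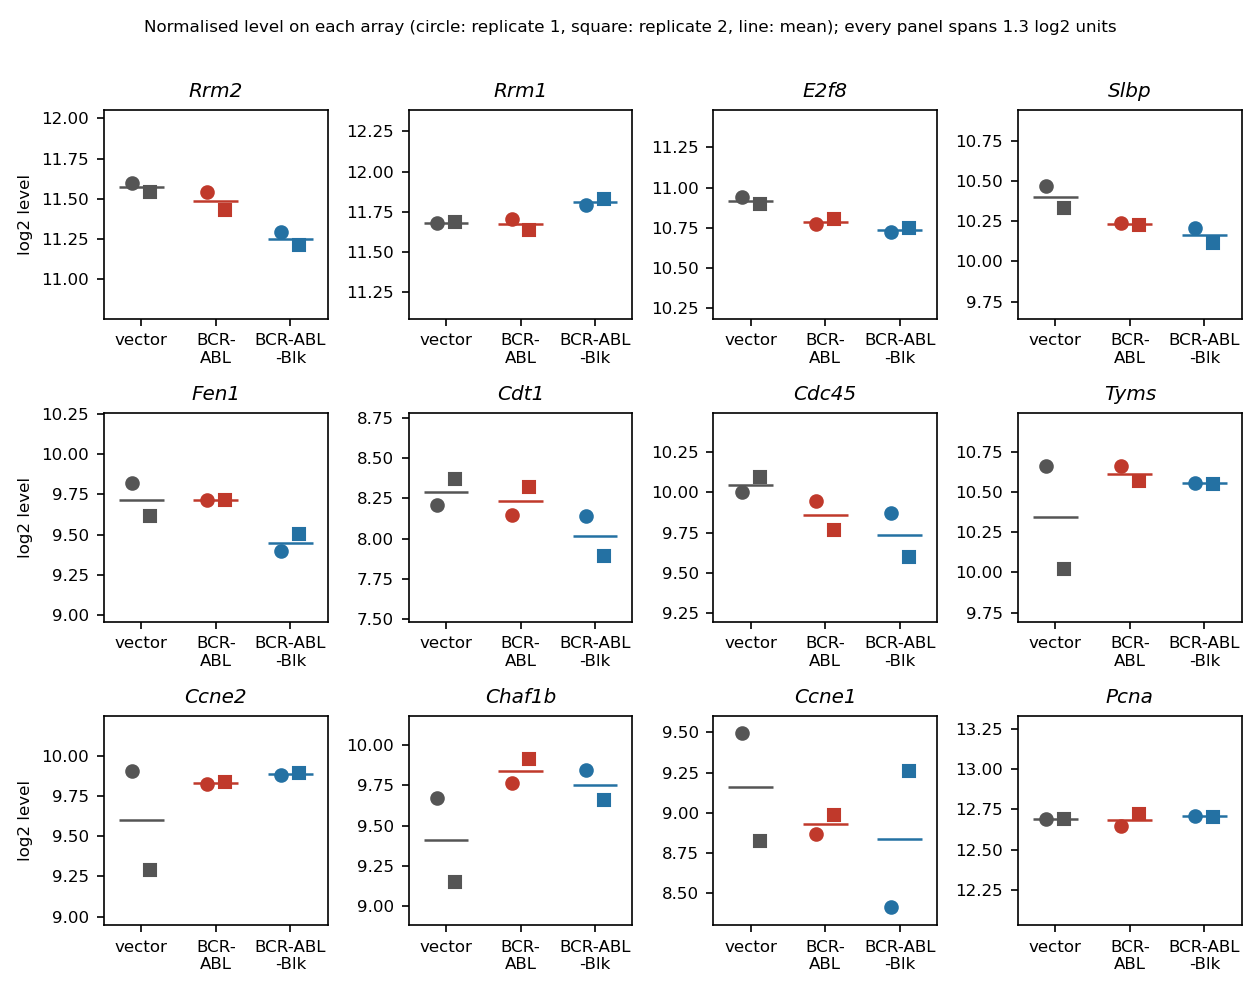
Normalised log2 level (y axis) of 12 of the genes on each of the 6 arrays, by group (x axis), with the mean of each group as a line; every panel spans the same range. The squares of vector replicate 2 stand low for Tyms, Ccne2 and Chaf1b, and the BCR-ABL-Blk arrays are the lowest for Rrm2 and Fen1 and the highest for Rrm1.

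The cyclin E genes encode partners of Cdk2 at the start of S phase, and their differences from vector lay within the spread of the vector replicates. Ccne1 read 9.49 and 8.82 in vector, 8.87 and 8.99 in BCR-ABL, and 8.41 and 9.26 in BCR-ABL-Blk cells. Its range of 1.08 over the 6 arrays was the largest of the 37 genes and the only one over 2-fold, which 5.73% of all genes exceeded. The replicates of a group differed by up to 0.85, so the differences between groups (−0.23, −0.09 and −0.32, SE 0.31 each) were within that spread. Ccne2 read 9.91 and 9.29 in vector, 9.82 and 9.84 in BCR-ABL, and 9.88 and 9.89 in BCR-ABL-Blk cells. Apart from the low vector replicate 2 its values lay between 9.82 and 9.91. The difference from vector was 0.23 in BCR-ABL (SE 0.20, adjusted p = 0.807) and −0.07 without that array. Both BCR-ABL-Blk arrays of Ccne2 lay above both BCR-ABL arrays, by 0.06 on average (SE 0.20, adjusted p = 0.999). With arrays centred on their medians, that difference was −0.02.

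Of the E2F factors, E2f1, an activator, read 8.18 and 8.18 in vector, 8.08 and 8.46 in BCR-ABL, and 7.99 and 8.36 in BCR-ABL-Blk cells, and its groups overlapped. E2f2, another activator, lay between 7.25 and 7.64. E2f8, a repressor that closes the E2F programme late in S phase, read 10.94 and 10.90, 10.77 and 10.80, and 10.73 and 10.75. Vector arrays were highest and BCR-ABL-Blk arrays lowest with no overlap, by −0.13 for BCR-ABL minus vector (SE 0.09, adjusted p = 0.740) and −0.18 for BCR-ABL-Blk minus vector (SE 0.09, adjusted p = 0.593).

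Genes that rebuild chromatin behind the fork gave the largest single difference. Chaf1b, a subunit of the assembly factor that sets histones on new DNA, read 9.67 and 9.15 in vector, 9.76 and 9.91 in BCR-ABL, and 9.85 and 9.66 in BCR-ABL-Blk cells. BCR-ABL lay 0.43 above vector (SE 0.19, 95% interval −0.02 to 0.87, adjusted p = 0.592), and this ranged from 0.17 without vector replicate 2 to 0.69 without vector replicate 1. Its partner Chaf1a lay between 10.08 and 10.60 and was lowest on BCR-ABL replicate 1. Uhrf1, which guides DNA methylation to new strands, read 11.05 and 10.83, 10.77 and 11.00, and 11.02 and 11.18, with BCR-ABL-Blk above BCR-ABL by 0.21 (SE 0.12, adjusted p = 0.999). Slbp, which binds the stem-loop of histone mRNA, read 10.47 and 10.33 in vector, 10.24 and 10.23 in BCR-ABL, and 10.21 and 10.12 in BCR-ABL-Blk cells. Its BCR-ABL-Blk minus vector difference was −0.24 (SE 0.11, adjusted p = 0.573), and −0.11 on its second probe set. Without normalization between arrays the same comparison gave −0.06 for Slbp and −0.015 for E2f8. The uracil glycosylase Ung lay between 7.47 and 7.93 and the checkpoint kinase Chek1 between 9.80 and 10.21, both with overlapping groups.

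Cases in which the arrays of a pair of groups did not overlap were counted beside the share over all genes. Between BCR-ABL and vector cells, both BCR-ABL arrays lay above both vector arrays for 6 of 37 genes (22.1% of all genes) and below for 4 (14.9%). Between BCR-ABL-Blk and BCR-ABL cells 4 genes lay above (14% of all genes) and 9 below (20%): Cdt1, Gins1, Rfc4, Fen1, Lig1, Rrm2, Tyms, E2f8 and Slbp. Between BCR-ABL-Blk and vector cells 5 lay above (19.7%) and 7 below (17.5%). Rrm2, E2f8 and Slbp had vector above BCR-ABL above BCR-ABL-Blk with no overlap at all, as did 1.77% of all genes. Without normalization between arrays BCR-ABL-Blk minus BCR-ABL was instead 0.135 for E2f8 and 0.145 for Slbp. There Rrm2 read 11.46 and 11.41 in BCR-ABL and 11.47 and 11.26 in BCR-ABL-Blk cells, so these groups overlapped. With arrays centred on their medians, the BCR-ABL minus vector difference of Rrm2 was 0.06. On the second Slbp probe set the groups overlapped, with 10.34 and 10.23 in vector, 10.295 and 10.165 in BCR-ABL, and 10.25 and 10.095 in BCR-ABL-Blk cells. In the common scaling 0 of 37 had the opposite order, as did 1.8%.

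**Figure D3:**
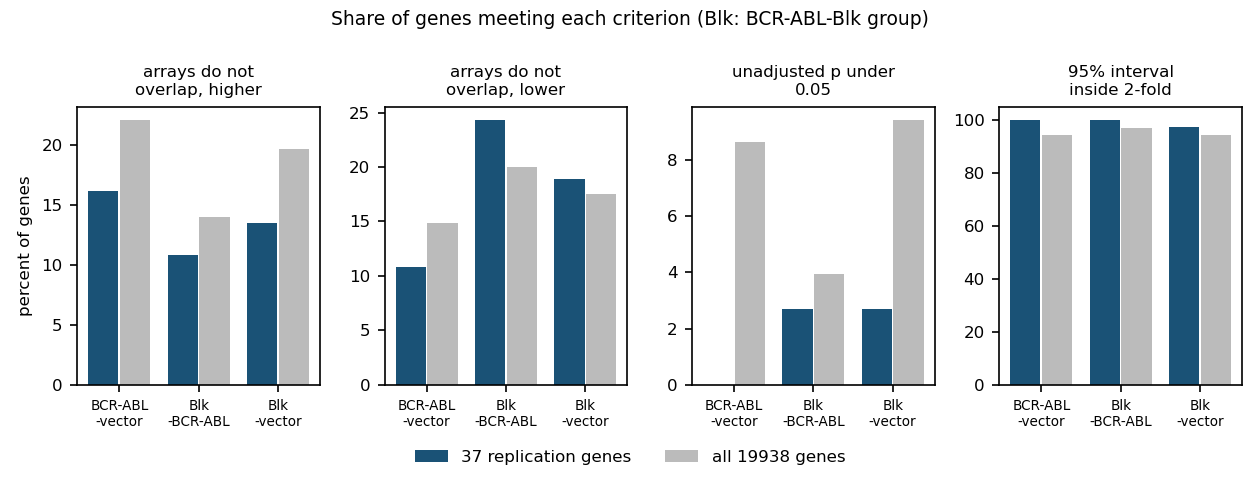
Percent of genes (y axis) that meet each of 4 criteria in the 3 comparisons (x axis), for the 37 replication genes (dark bars) and all 19938 genes (grey bars). For the replication genes, non-overlapping and higher makes up a smaller share than for all genes in each comparison. Non-overlapping and lower makes up 24.3% against 20% for BCR-ABL-Blk minus BCR-ABL, and 18.9% against 17.5% for BCR-ABL-Blk minus vector. These are 9 and 7 of 37 genes, where 1 gene makes up 2.7%. The shares thus lie near those of all genes and are not read as a property of the replication genes.

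The vector replicates also differed from each other. Vector replicate 2 was the lowest of the 6 arrays for 14 of 37 genes (37.8%; 25.2% of all genes), and vector replicate 1 or BCR-ABL-Blk replicate 2 the highest for 10 each (27% each; 15.7% and 17.2% of all genes). Replicate 1 of vector exceeded replicate 2 for 24 genes, with a median difference of 0.15, where 51.5% of all genes were higher on replicate 1. The replicates differed by more than 1.5-fold for Tyms, Ccne1 and Ccne2 (8.11%; 5.95% of all genes). The median size of a replicate difference was 0.189 for the 37 genes in vector (0.145 for all genes). It was 0.095 in BCR-ABL (0.118 for all genes), and the BCR-ABL-Blk pair gave 0.128 (0.12 for all genes). Markers of other cells differed between the same arrays: the median B cell progenitor gene was 2.17 above its mean on vector replicate 1 and 0.33 on vector replicate 2, erythroid genes 0.66 and 0.11, neutrophil granule genes 0.08 and 0.57. Their part in the levels of the replication genes was not tested.

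**Figure D4:**
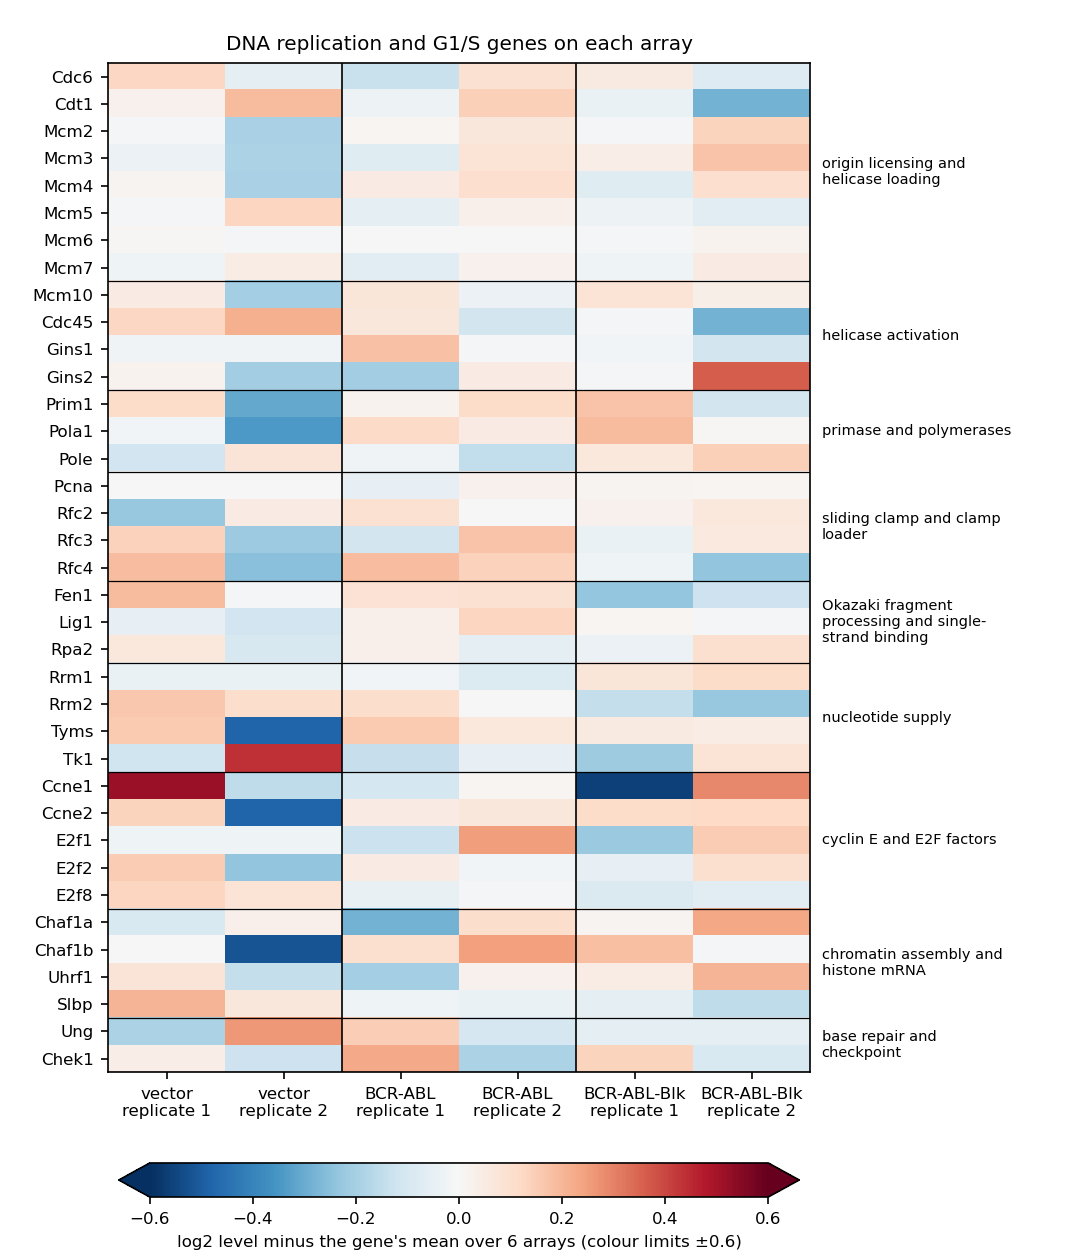
Level of each of the 37 genes (rows, by role) on each array (columns) as the log2 difference from the gene's mean over 6 arrays; red is above and blue below that mean. Vector replicate 2 is the lowest array for 14 of the 37 genes, with its deepest blue cells at Tyms, Ccne2 and Chaf1b.

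Further replication and cell cycle genes, from lists drawn up by role, also had 0 genes past the test. Their counts of non-overlapping arrays were less close to those of all genes. These counts were taken in the common scaling only. For BCR-ABL-Blk minus BCR-ABL, 20 of 52 other replication genes lay below and 8 above (20% and 14% of all genes). Against vector, 17 of the 52 lay above and 5 below in BCR-ABL cells (22.1% and 14.9%). In BCR-ABL-Blk cells 16 lay above vector and 8 below (19.7% and 17.5%). For BCR-ABL minus vector, 11 of 28 G2/M genes lay below and 2 above (14.9% and 22.1%). Of 56 other replication and S phase genes 52 were measured and 0 passed in each comparison, with median differences of 0.06, −0.03 and 0.02. Those nearest to passing between BCR-ABL and vector cells were Tipin, a fork protection factor (0.19, SE 0.08), Usp1, a deubiquitinase of Pcna (0.36, SE 0.15), and Mcm8, a helicase of repair (0.33, SE 0.14), followed by the GINS subunit Gins4 (0.15, SE 0.07). Between BCR-ABL-Blk and BCR-ABL cells they were Rfc5, another clamp loader subunit (0.38, SE 0.10), Gmnn, which blocks Cdt1 (−0.38, SE 0.12), and the polymerase subunits Pole4 (0.25, SE 0.10) and Pole3 (−0.33, SE 0.13), each at an adjusted p of 0.999. Rfc5 read 10.42 and 10.46 in vector, 10.44 and 10.32 in BCR-ABL and 10.77 and 10.75 in BCR-ABL-Blk cells, so its BCR-ABL-Blk arrays stood above the other 4. Against vector the nearest were Rfc5 again (0.32), Tcf19 (−0.57, SE 0.19), Cdca7 (0.28) and Gmnn (−0.28).

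Of 27 G1/S regulators 26 were measured, 0 passed, and the medians were 0.07, 0.0004 and 0.08. The CDK inhibitor Cdkn2c had the largest difference between BCR-ABL and vector cells, −0.77 (SE 0.17, adjusted p = 0.196), and Cdkn1c, an inhibitor of resting stem cells, lay 0.50 above vector (SE 0.14, adjusted p = 0.338). Tfdp2, a partner of E2F factors, differed by 0.47 and 0.56 from vector in the groups with BCR-ABL. Ccnd2, a D-type cyclin, was next (0.17, SE 0.07). Between BCR-ABL-Blk and BCR-ABL cells the nearest were Rbl1, a relative of the retinoblastoma protein (0.31, SE 0.12), the CDK inhibitors Cdkn2c (0.42) and Cdkn2b (−0.31), and Rb1, the retinoblastoma protein itself (−0.30), each at an adjusted p of 0.999. Against vector they were Cdkn1c (0.52), Tfdp2, the repressor E2f7 (0.49) and Rbl1 (0.34). Of 29 G2/M genes 28 were measured and 0 passed; the medians were −0.07, 0.06 and −0.02, and the proliferation marker Mki67 was at −0.26 between BCR-ABL and vector cells (SE 0.09, adjusted p = 0.452). Foxm1, a factor that drives G2/M genes, followed with −0.35, the mitotic kinase Aurkb with −0.25 and the kinesin Kif2c with −0.29. Between BCR-ABL-Blk and BCR-ABL cells the nearest were Kif23 (0.25), Bub1b (0.16), Kif2c (0.28) and Foxm1 (0.24), and against vector Aurkb (−0.33), Ttk (0.19), Ube2c (−0.22) and Cenpa (−0.21).

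Over the same arrays the cell type lists differed by more than the replication genes. Between BCR-ABL and vector cells the median difference was −1.88 over 12 B cell progenitor genes, −1.36 over 10 monocyte and dendritic genes, −0.51 over 11 erythroid genes and −0.24 over 11 neutrophil granule genes. It was 0.47 over 12 genes of the stem cell list, 0.48 over 6 megakaryocyte genes, 1.28 over 8 mast cell and basophil genes, and −0.05 over the 7 lineage markers. Of these, H2-Ab1 and Gzmb passed over all genes, as part of the monocyte and dendritic list and of the mast cell list. Between BCR-ABL-Blk and BCR-ABL cells the medians were 0.42, 0.21, −0.13 and −0.40 for the first 4 lists and 0.09, −0.04, −0.42 and −0.15 for the others, with 0 genes past the test. Against vector, BCR-ABL-Blk cells gave −1.67, −1.17, −0.71 and −0.75, then 0.57, 0.45, 0.72 and −0.08; H2-Ab1, Ccr2, Meis1 and Gzmb passed. The median replication gene lay between −0.06 and 0.03 of its own mean on every array, while these lists spanned from −0.97 to 2.17.

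**Figure D5:**
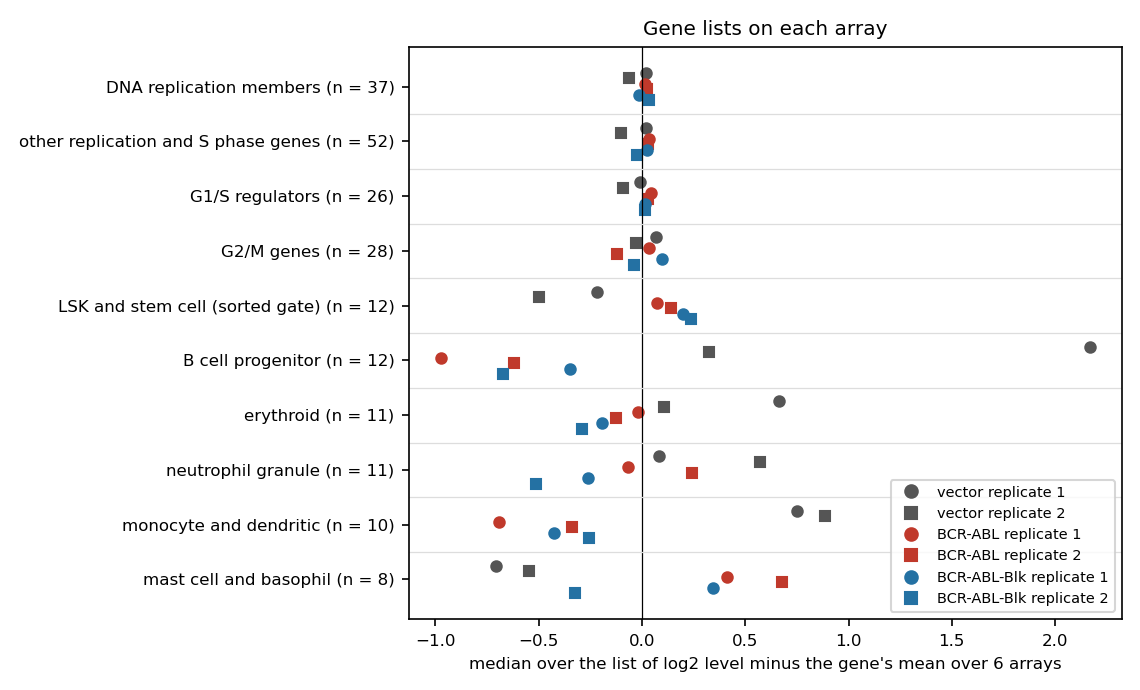
Median log2 level of each gene list relative to each gene's mean over 6 arrays (x axis), for 10 lists (y axis), with 1 point an array, coloured by group. The replication genes, the other S phase genes and the G1/S and G2/M genes stay near 0, while B cell progenitor genes reach 2.17 on vector replicate 1.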

How the data were processed

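Sorted LSK cells of 3 groups were measured on 6 arrays. The deposited values are log2 intensities that the authors made with RMA in Affymetrix Expression Console 1.1, per the submitters' processing notes; no source used here gives its options or the genome build. Of 35557 probe sets, 21789 carry 1 symbol in the platform annotation, 1621 several (left out) and 12147 none here. The values were quantile normalised between arrays, and 1 probe set was kept for each of 19938 genes (999 had several). The fit was limma 3.58.1 in R 4.3.3 (lmFit, eBayes with an intensity trend, all 6 arrays, group as the only term). It gave differences, 95% intervals and Benjamini-Hochberg adjusted p-values over all genes, called under 0.05. The fit was also run on simulated arrays with equal spread in all groups, unlike the vector arrays here, and the outcome is not given. With 2 arrays a group, their number limits the precision, and nothing states how many mice an array stands for, so p-values measure the spread between these samples. The 37 genes, the 11 gene lists and the normalization were chosen with earlier results of these data known. Values on every array are given for the 8 genes with the smallest p in each comparison and for Pcna, Mcm2, Rrm2, Ccne1, Ccne2 and E2f1; of the replication, G1/S and G2/M lists, the 4 genes with the smallest p are named. Rfc5 and Cdt1 were given on every array after their values were seen. Promoter sequences come from RefSeq (GRCm38.p6), matched by gene. Alternatives covered the scaling, probe set rule, trend, array weights, arrays fitted, a filter on dim genes, a replicate block and each array left out.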

Additional observations from a re-analysis of the deposited data

How the results depend on the processing

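Of 15 alternatives, the scaling and the vector arrays changed most. Without normalization between arrays 401, 79 and 732 genes were called (BCR-ABL minus vector, BCR-ABL-Blk minus BCR-ABL, BCR-ABL-Blk minus vector; 29, 0 and 28 with it), and the median gene itself differed by −0.11, 0.26 and 0.15. There the median of the 37 genes was 0.19 and 0.22 in the latter pair, 1 of them was called against vector, and E2f1 read −0.03, 0.19 and 0.16, Gins1 0.025 and Ccne1 0.18 (both BCR-ABL-Blk minus BCR-ABL). With arrays centred on their medians, the median of the 37 was 0.12 for BCR-ABL minus vector, with Pcna at 0.12 and Rrm2 at 0.06. It was −0.12 for BCR-ABL-Blk minus BCR-ABL, with Rrm1 at −0.025, Pcna −0.17, Mcm2 −0.09 and Ccne2 −0.02; against vector Pcna was −0.045, and −0.0162 with cyclic loess. Genes called were 15 and 50 for BCR-ABL minus vector without the intensity trend and without dim genes. For BCR-ABL-Blk minus vector they were 6 with loess, 4 without the trend, 14 with array weights, 4 with only the arrays compared and 53 without dim genes. The causes were not tested.

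Leaving out each array in turn gave 1 to 507, 0 to 2 and 4 to 560 genes called, 0 to 1 of the 37 called for BCR-ABL minus vector, and medians of the 37 from −0.01 to 0.0888 for BCR-ABL minus vector and −0.0075 to 0.0967 for BCR-ABL-Blk minus vector. For both comparisons with vector the largest counts came without vector replicate 1. For BCR-ABL minus vector Ccne1 then ran from −0.57 to 0.10, Tyms −0.0475 to 0.589, Ccne2 −0.0733 to 0.54, Pcna −0.0467 to 0.0283 and E2f1 −0.10 to 0.28. For BCR-ABL-Blk minus BCR-ABL Ccne1 ran from −0.52 to 0.33, E2f1 −0.29 to 0.10, Mcm2 −0.0533 to 0.0917 and Pcna −0.0108 to 0.0642. For BCR-ABL-Blk minus vector Ccne1 ran from −0.75 to 0.10, Ccne2 −0.0175 to 0.596 and E2f1 −0.19 to 0.18. A lone array was assumed to vary like the others.

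Whether arrays with the same replicate number belong together is not in the labels, and correlations from so few arrays cannot settle it. Differences between replicates correlated over all genes at −0.06, 0.08 and 0.03 (vector with BCR-ABL, vector with BCR-ABL-Blk, BCR-ABL with BCR-ABL-Blk). Over the 37 genes the same correlations were −0.09, −0.06 and 0.41. A replicate block gave 29, 0 and 23 genes called and 0 of the 37 in each comparison.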
